A study of Mus musculus with 11 samples.

Results

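The genes described here are 28 genes of red cell precursors and of heme synthesis, the globins left aside, measured in the liver of newborn mice in which Notch signalling had been switched on. They were taken by name: every probe of the array whose gene name, older gene name or current symbol matched the list was used. The list covers 6 regulators of red cell formation, 10 proteins of the red cell membrane and its skeleton, 8 proteins of heme synthesis and iron supply, and 4 other red cell precursor proteins. Of 41174 distinct probes 41 matched, and of 20811 genes with a symbol all 28 were found. The mice were of a hybrid 129 x C57BL/6 background, and total RNA of whole liver was hybridised in 1 colour to Agilent whole mouse genome arrays, with 1 array per liver sample. The 5 controls carried the Rosa26-lsl-NICD allele alone, in which a stop cassette keeps the active intracellular part of Notch (NICD) silent until Cre removes it. The 6 mutants carried the same allele together with AFP-Cre, a Cre recombinase driven by the promoter of alpha-fetoprotein, a protein made by the hepatocytes and liver progenitors of the fetus. There were 2 controls and 3 mutants at day 0, the day of birth, and 3 controls and 3 mutants at day 2. Mice with Cre but without the NICD allele were not analysed here, so an effect of Cre itself cannot be told apart from that of NICD, and which cells had recombined was not measured on these arrays.

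The fetal liver is a blood-forming organ, and around birth red cell formation moves from the liver to the bone marrow and spleen. Erythroid progenitors bind erythropoietin (Epo) through the receptor Epor, and the transcription factors Gata1, Tal1, Klf1, Gfi1b and Nfe2 then switch on genes for globin, membrane proteins and heme synthesis. Heme is built from glycine and succinyl-CoA by a chain of enzymes that starts in the mitochondrion with Alas2 and ends there when Fech inserts iron, which enters the cell through the transferrin receptor Tfrc. Gata1 binds DNA at the letters GATA, and Klf1 binds CACCC-type sites.

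Because the arrays read RNA of whole liver, the cells that a gene's RNA came from were not identified. Fewer red cell precursors, less RNA per precursor and a change in other liver cells cannot be told apart in any result given here. Levels are log2 of the processed signal after subtraction of the array's own 75th percentile, so 0 is the level of a spot at that percentile and a difference of 1 is a 2-fold change. Signals of different probes are not compared with each other. The 75th percentile itself ran from 608 to 1302 between arrays, and 63.3% to 68.6% of spots were well above background. All 28 genes were well above background on all 11 arrays, and none was saturated. A gene was called changed at a Benjamini-Hochberg adjusted p under 0.05 over 15767 genes (limma, with 1 coefficient for each of the 4 groups). The labels do not say that each sample is a different pup, so the p-values reflect the spread among these samples only, which may in part be technical.

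Some features of the arrays bear on what follows. Mutant day 0 replicate 3 stood apart: it correlated across genes at 0.952 and 0.954 with the other day 0 mutants, whereas all other pairs within a group reached 0.983 or more. On that array 463 genes lay at least 2-fold below all other arrays and 607 at least 2-fold above, against at most 66 on any other array. The levels of Xist and Y-linked genes showed both day 0 controls to be male and all 3 day 0 mutants to be female, so sex and genotype coincided at day 0, and Gata1 and Alas2 are X-linked. At day 2 each group held 1 male and 2 females. Replicates 1, 2 and 3 of each group lay on slides 1, 2 and 3, and slide 3 had no day 0 control. A group always took the same place on the slide, which leaves place and group confounded: they cannot be told apart.

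Promoter sequence of 20 of the genes, 23 promoters in all, was at hand from RefSeq (GRCm38.p6), read as the 250 bases before each start site. The other 8 genes were Nfe2, Slc4a1, Ank1, Cldn13, Fech, Slc25a37, Ahsp and Car1. Searched on both strands, the GATA-type letters AGATAA or AGATAG or TGATAA or TGATAG were present in 14 of 23 promoters (60.9%), against 26.5% of all 32851 promoters of the same length. They belonged to 14 of 20 genes (70.0%, against 29.7% of 27025 genes), in 10 of which a match lay within 100 bases of the start. The CACCC-type letters CCNCNCCC, whose matches can overlap one another, were present in 12 of 23 promoters (52.2%) against 45.9% of all promoters. These counts describe letters and were not tested, and a match is not a binding site. Below are the promoters of 2 regulators (Klf1 on chr8:84901732-84901981, plus strand, and Epor on chr9:21963577-21963826, minus strand), a membrane protein with a pair of GATA matches (Kel, chr6:41704326-41704575, minus strand) and 2 heme enzymes, 1 with matches (Alas2, chrX:150547167-150547416, plus strand) and 1 without (Urod, chr4:116994414-116994663, minus strand). Each is written 5′ to 3′ in the direction of the gene, ending at the base before the start, with GATA-type and CACCC-type matches in capitals.
Klf1: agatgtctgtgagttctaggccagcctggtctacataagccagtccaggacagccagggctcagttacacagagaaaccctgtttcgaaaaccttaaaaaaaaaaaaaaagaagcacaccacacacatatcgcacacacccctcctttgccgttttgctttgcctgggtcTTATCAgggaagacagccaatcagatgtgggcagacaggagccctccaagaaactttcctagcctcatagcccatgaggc
Epor: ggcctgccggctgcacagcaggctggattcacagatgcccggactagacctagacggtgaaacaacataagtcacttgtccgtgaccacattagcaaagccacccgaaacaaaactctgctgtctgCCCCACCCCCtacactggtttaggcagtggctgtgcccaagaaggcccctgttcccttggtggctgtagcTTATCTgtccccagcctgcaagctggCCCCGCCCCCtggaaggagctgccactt
Kel: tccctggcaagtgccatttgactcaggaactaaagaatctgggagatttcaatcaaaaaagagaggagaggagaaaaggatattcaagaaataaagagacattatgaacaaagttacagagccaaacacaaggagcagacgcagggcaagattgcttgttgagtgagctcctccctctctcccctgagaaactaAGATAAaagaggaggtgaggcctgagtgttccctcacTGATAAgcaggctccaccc
Alas2: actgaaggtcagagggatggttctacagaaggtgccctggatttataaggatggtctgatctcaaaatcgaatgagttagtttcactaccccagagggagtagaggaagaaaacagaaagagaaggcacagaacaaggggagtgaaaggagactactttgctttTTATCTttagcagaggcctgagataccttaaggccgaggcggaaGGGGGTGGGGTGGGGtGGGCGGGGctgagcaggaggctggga
Urod: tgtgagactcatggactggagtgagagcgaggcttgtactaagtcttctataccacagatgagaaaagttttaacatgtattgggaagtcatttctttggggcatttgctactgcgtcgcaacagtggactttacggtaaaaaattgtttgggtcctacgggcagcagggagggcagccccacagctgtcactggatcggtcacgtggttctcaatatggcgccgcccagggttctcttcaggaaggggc
In Klf1 the capitals mark 1 GATA match on the minus strand at -80 to -75, counted back from the start. Epor has 1 at -54 to -49, and CACCC-type matches from -124 to -115 and from -28 to -19. Kel has a match at -56 to -51 and another at -19 to -14, both on the strand of the gene. Alas2 has 1 at -86 to -81, upstream of a cluster of CACCC-type matches from -42 to -19. Urod has none of the letters searched. The 14 genes with GATA letters had a median genotype difference at day 2 of -1.31 (range -1.64 to -1.06) and the 6 without had -1.16 (-1.54 to -0.88), so the ranges overlapped widely. Of the 14, 7 were called lower at day 2, and of the 6, all 6 were called, where 6.64% of all genes were. Without mutant day 0 replicate 3, described above, all 28 genes were called at day 2 and the counts did not differ (15.2% of all genes were called lower).

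The main comparison asked how liver expression differs between mutants and controls, with both days given equal weight. Of the 28 genes 17 fell in mutants and none rose, where 6.98% of all 15767 genes were called lower and 8.84% higher. The fitted difference was below 0 for all 28, from -1.61 for Klf1 to -0.32 for Car1, with a median of -0.96 against -0.05 over all genes. Sptb, Gata1 and Nfe2 had the smallest adjusted p (0.00214, 0.00281 and 0.00351). By class, 4 of 6 regulators, 7 of 10 membrane genes, 5 of 8 heme genes and 1 of 4 other genes fell. With slide as a replicate block 10 of the 28 were called, where 5.51% of all genes were called lower. With sex as a covariate 3 were called (Gata1, Nfe2 and Sptb), where 2.23% of all genes were called lower. The count also moved when single arrays were left out, as did the share of all genes called lower. It was 7 and 11 without day 2 control replicates 1 and 2, where 4.38% and 3.95% of all genes were called lower. It was 9, 9 and 11 without day 2 mutant replicates 1, 2 and 3, where 4.8%, 3.95% and 5.01% were. With day 0 control replicate 1 or 2 left out, 1 control remained, and the median difference of the 28 was -0.89 or -0.99. Gata1, Nfe2 and Sptb passed in all 20 other settings tried.

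**Figure D1:**
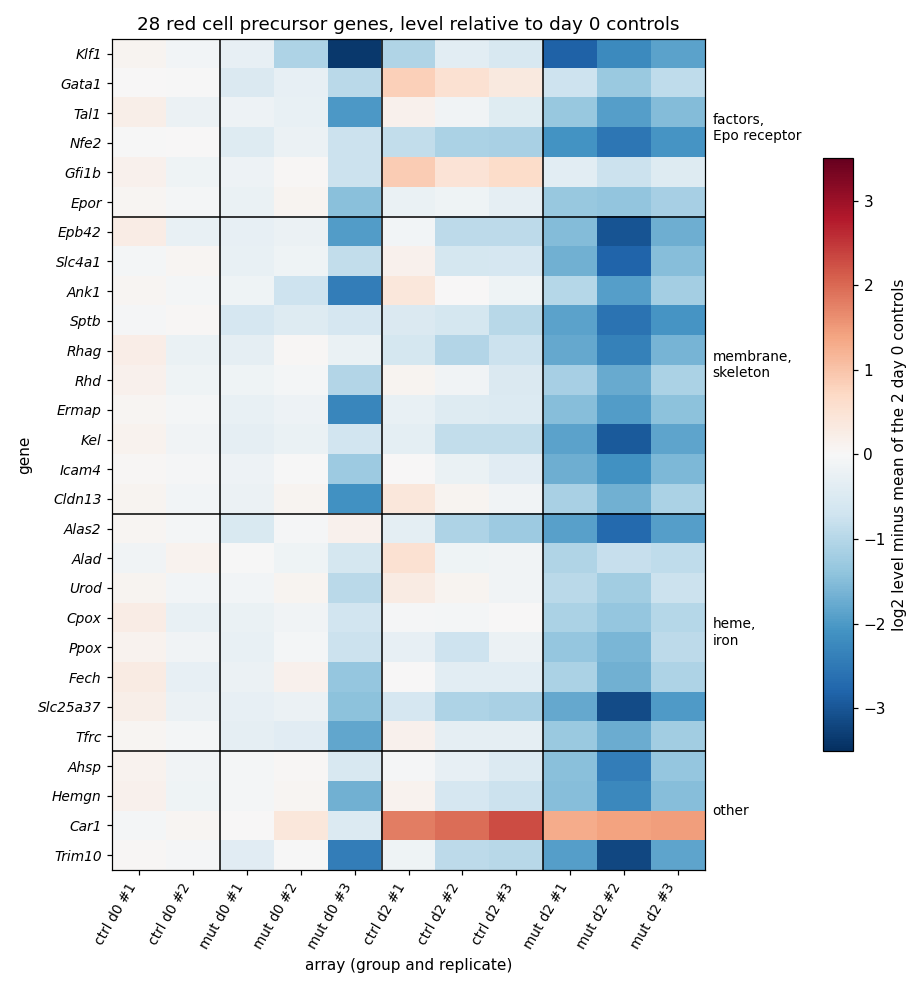
Heat map of the log2 level of the 28 genes (rows, grouped by role) on the 11 arrays (columns, by group and replicate), each relative to the mean of the 2 day 0 controls. Blue is lower and red is higher. The 3 day 2 mutants at the right are blue for every gene but Car1, day 0 mutant replicate 3 is blue for some genes and near white for others, and Car1 is red on all day 2 arrays.

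At day 2, with 3 mutants and 3 controls, 16 of the 28 genes fell and none rose (6.64% of all genes were called lower and 9.74% higher) and the median difference was -1.31, against -0.09 over all genes. All 28 genes were lower in every day 2 mutant than in every day 2 control, as were 24.7% of all genes, and the mean difference corresponded to 1.53-fold to 3.13-fold less signal. It follows that all 28 genes were also lower in the mutant within each slide. The median differences within slides 1, 2 and 3 were -1.41, -1.65 and -0.89, against -0.09, -0.06 and -0.10 over all genes. Day 2 control replicate 1 had the highest value of its group for 23 of the 28 genes. Without it the count at day 2 was 9, where 2.82% of all genes were called lower. The count was 28 without mutant day 0 replicate 3, where 15.2% of all genes were called lower. That array enters this comparison only through the shared estimate of the spread. Fitting the day 2 arrays alone gave 27, where 11.7% of all genes were called lower.

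At day 0, with 3 mutants and 2 controls, none of the 28 passed (0.717% of all genes were called lower and 1.6% higher). An unadjusted p under 0.05 (limma) was reached by 3 of the 28 (Sptb, Nfe2 and Gata1), and by 2372 of all 15767 genes. Normexp treatment, quantile normalisation and the authors' table gave no call either. The median difference was -0.48, against -0.01 over all genes, and 10 of the 28 genes were lower in every mutant than in every control, as were 15.1% of all genes. Without mutant replicate 3 the median was -0.19, and none of the 28 passed, where 2.37% of all genes were called lower. None had an unadjusted p under 0.05 (limma), against 3151 of all 15755 genes in that fit. Within slide 1 the mutant was lower for 26 of 28 genes (median -0.37), against 8169 of 15689 over all genes (median -0.018). Within slide 2 it was lower for 12 of 28 (median 0.021), against 7194 of 15733 over all genes (median 0.045). Groups failed to overlap on both days for 10 of the 28 genes (35.7%, against 6.94% of all genes).

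Whether the genotype difference changed between the days was tested as an interaction. None of the 28 passed (0.0381% of all genes were called lower and 0.235% higher), with limma adjusted p from 0.215 to 0.981. An unadjusted p under 0.05 (limma) was reached by 11 of the 28, and by 2311 of all 15767 genes. All 28 estimates were below 0, with a median of -0.73, against -0.04 over all genes. Without mutant day 0 replicate 3, Icam4 and Epor were called (-1.50 and -0.98, adjusted p = 0.0381 and 0.0494), where 0.381% of all genes were called lower. The comparisons over both days, at each day and between the days share arrays, so their values are given side by side and not as support for each other.

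**Figure D2:**
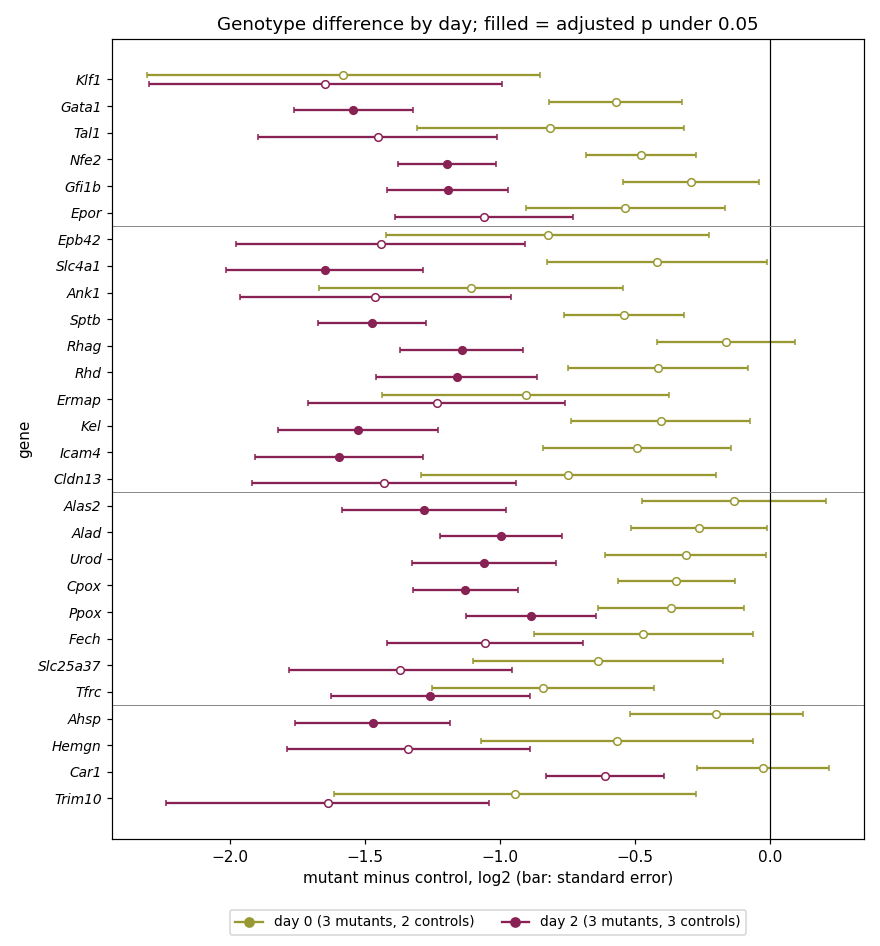
Mutant minus control difference (log2, horizontal axis) for each of the 28 genes at day 0 (olive) and day 2 (purple), with bars of 1 standard error and filled points where the adjusted p is under 0.05. All points lie left of 0, none of the day 0 points is filled and 16 of the day 2 points are.

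Among the regulators, Gata1, the master factor of the red cell lineage (chromosome X, 7116682 to 7116741, mm8), fell over both days by 1.06 ± 0.17 (SE, limma adjusted p = 0.00281). Its level was 1.98 and 1.96 in the day 0 controls and 1.48, 1.70 and 1.03 in the day 0 mutants. At day 2 it was 2.80, 2.52 and 2.31 in controls and 1.25, 0.66 and 1.08 in mutants, 2.91-fold lower on average (adjusted p = 0.00181). The groups did not overlap on either day. Nfe2, the blood-specific subunit of the factor NF-E2, stood at 3.92 and 3.97 in day 0 controls and at 3.48, 3.73 and 3.20 in day 0 mutants. By day 2 it was 3.07, 2.83 and 2.81 in controls against 1.85, 1.41 and 1.87 in mutants, a difference of -1.19 ± 0.18 (SE, adjusted p = 0.00253). It too was lower in every mutant on both days.

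Gfi1b, a repressor needed for red cells and platelets, read 3.56 and 3.24 in day 0 controls and 3.23, 3.45 and 2.66 in day 0 mutants, which overlapped. At day 2 controls read 4.28, 3.88 and 4.06 and mutants 3.05, 2.64 and 2.95, a difference of -1.19 ± 0.22 (SE, adjusted p = 0.00707). Tal1, a partner of Gata1, fell over both days by 1.13 ± 0.33 (SE, adjusted p = 0.0470) but not at day 2 alone (-1.45, adjusted p = 0.0530). The call over both days was lost in 13 of 20 other settings, with adjusted p from 0.00554 to 0.161, and without mutant day 0 replicate 3 the day 2 difference passed (adjusted p = 0.00157). Its day 0 levels were 4.07 and 3.68 in controls and 3.70, 3.63 and 1.86 in mutants, and its day 2 levels were 4.02, 3.75 and 3.44 in controls and 2.54, 1.95 and 2.36 in mutants. At day 0 mutant replicate 3 was the one low array, and the other mutants lay close to the controls.

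Klf1, which activates adult globin and many membrane genes, had the largest fitted difference of the 28 over both days and still did not pass (-1.61 ± 0.49 SE, adjusted p = 0.0534). Its day 0 levels were 4.75 and 4.57 in controls and 4.36, 3.59 and 1.30 in mutants, a spread of 1.59 (SD, n = 3) in the mutants. At day 2 it was 3.60, 4.28 and 4.11 in controls and 1.83, 2.43 and 2.80 in mutants (-1.64 ± 0.65 SE, adjusted p = 0.120). Without mutant day 0 replicate 3 its day 2 difference passed (adjusted p = 0.00509). Epor, the receptor for erythropoietin, read 3.95 and 3.79 in day 0 controls and 3.64, 3.95 and 2.41 in day 0 mutants. At day 2 it was 3.63, 3.72 and 3.56 in controls and 2.54, 2.49 and 2.71 in mutants, tight groups that were well apart, yet the shared spread gave adjusted p = 0.0570 (-1.06 ± 0.33 SE). The hormone itself, Epo, was well above background on 1 and 3 of 11 arrays by its probes and was not tested.

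**Figure D3:**
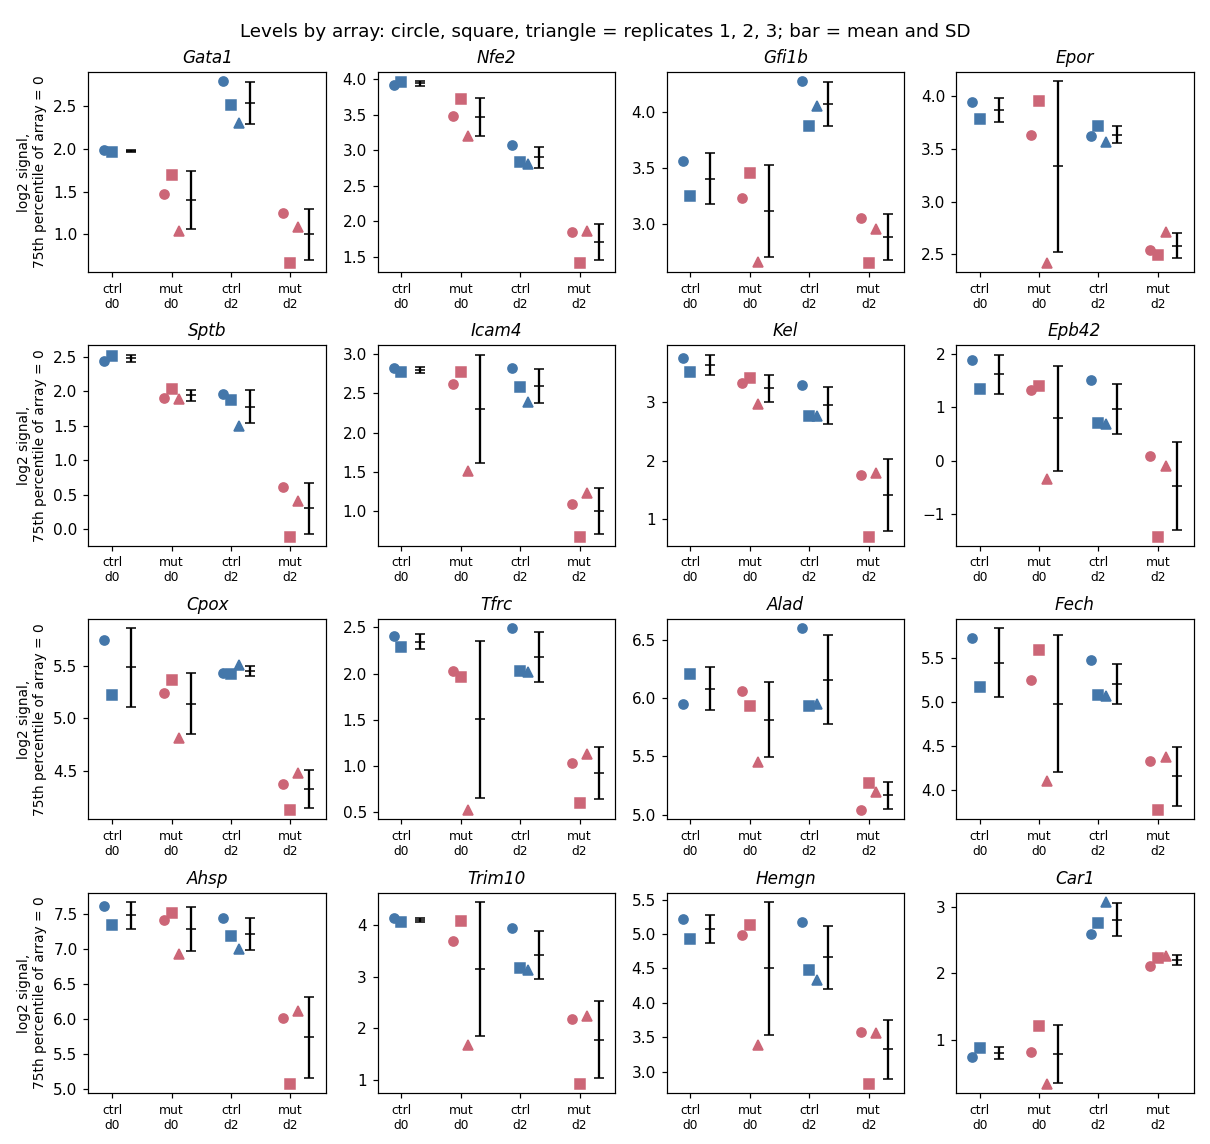
Log2 level (vertical axis, 0 at the 75th percentile of the array, a separate scale in each panel) of 16 genes in the 4 groups: in each role class the 3 genes with the smallest p over both days and the 1 with the largest. Blue is control and red is mutant, symbols mark replicates 1 to 3, and black bars give the mean and SD. At day 2 no mutant reaches a control in any panel, and at day 0 replicate 3 (triangle) is often the lowest mutant.

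The membrane skeleton was represented by Sptb, Ank1 and Epb42. Sptb, the beta chain of spectrin (chromosome 12, 77517491 to 77517550), had the smallest p of the 28 (-1.01 ± 0.15 SE over both days, adjusted p = 0.00214). It read 2.44 and 2.51 in day 0 controls, 1.90, 2.03 and 1.89 in day 0 mutants, 1.96, 1.87 and 1.50 in day 2 controls and 0.61, -0.11 and 0.41 in day 2 mutants. On this probe the groups were apart on both days, and mutant day 0 replicate 3 did not stand out. On another of its probes that array read -0.56, against 1.05 and 0.93 on mutant replicates 1 and 2. All 4 of its probes gave a lower level in mutants at day 2, by 0.90 to 1.47. Ank1, which anchors spectrin to the membrane, read 3.48 and 3.32 in day 0 controls and 3.24, 2.67 and 0.97 in day 0 mutants. At day 2 it was 3.79, 3.41 and 3.26 in controls and 2.40, 1.49 and 2.20 in mutants (-1.46, adjusted p = 0.0793), and over both days it passed (-1.28 ± 0.38 SE, adjusted p = 0.0479). Its 5 probes ran together at day 2 (-1.58 to -1.34) and disagreed in direction at day 0 (-1.10 to 0.63). Epb42, the protein 4.2 that ties band 3 to ankyrin, did not pass on either day. It was 1.87 and 1.35 in day 0 controls, 1.32, 1.39 and -0.35 in day 0 mutants, 1.51, 0.71 and 0.68 in day 2 controls and 0.09, -1.42 and -0.09 in day 2 mutants (-1.44 ± 0.53 SE at day 2, adjusted p = 0.0997).

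Of the 7 genes for proteins that span the membrane or sit on the cell surface, 5 fell at day 2 (6.64% of all genes were called lower). Without mutant day 0 replicate 3 all 7 passed (15.2% of all genes were called lower). Slc4a1, the anion exchanger band 3, read 6.67 and 6.79 in day 0 controls, 6.48, 6.59 and 5.87 in day 0 mutants, 6.89, 6.11 and 6.14 in day 2 controls and 5.05, 3.92 and 5.24 in day 2 mutants, 3.13-fold lower at day 2 (adjusted p = 0.0149). Kel, the Kell blood group protein whose promoter is printed above, read 3.75 and 3.51, then 3.31, 3.41 and 2.97 at day 0 in controls and mutants, and 3.29, 2.76 and 2.76, then 1.75, 0.70 and 1.79 at day 2. Its day 2 difference was -1.52 ± 0.30 (SE, adjusted p = 0.00846). Icam4, the Landsteiner-Wiener adhesion protein, was close to level in mutants 1 and 2 at day 0 (2.63 and 2.78, against controls at 2.83 and 2.77), while replicate 3 read 1.52. At day 2 it was 2.82, 2.58 and 2.39 in controls and 1.10, 0.68 and 1.23 in mutants (-1.60 ± 0.31 SE, adjusted p = 0.00850). As for all 28 genes, the day 2 groups of these 3 did not overlap.

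Rhag and Rhd form the Rh complex. Rhag read 2.19 and 1.71 in day 0 controls and 1.64, 1.99 and 1.73 in day 0 mutants, with overlap, and 1.34, 0.92 and 1.20 against 0.15, -0.42 and 0.32 at day 2 (-1.14 ± 0.23 SE, adjusted p = 0.00936). Rhd was 5.80 and 5.47 against 5.49, 5.58 and 4.61 at day 0, and 5.74, 5.50 and 5.13 against 4.48, 3.87 and 4.54 at day 2 (-1.16 ± 0.30 SE, adjusted p = 0.0280). Both therefore fell at day 2 and overlapped at day 0. Ermap and Cldn13, an erythroid membrane protein and a claudin of red cell precursors, did not pass at day 2 (-1.23 and -1.43, adjusted p = 0.111 and 0.0768). Ermap read 3.43 and 3.30 in day 0 controls, 3.11, 3.18 and 1.09 in day 0 mutants, 3.10, 2.92 and 2.88 in day 2 controls and 1.87, 1.41 and 1.92 in day 2 mutants. Cldn13 read 2.91 and 2.70, then 2.60, 2.89 and 0.70 at day 0, and 3.19, 2.91 and 2.69, then 1.68, 1.12 and 1.71 at day 2. In both, the widest spread was that of the day 0 mutants (SD 1.19, n = 3).

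Like all 28 genes, the 6 heme enzymes read lower in every day 2 mutant than in every day 2 control, as did 24.7% of all genes. At day 2, 5 of these enzymes passed, where 6.64% of all genes were called lower. Without mutant day 0 replicate 3 all 6 passed, where 15.2% of all genes were called lower. Alas2, the red cell form of the first and limiting enzyme (chromosome X, 145911166 to 145911225), read 6.75 and 6.63 in day 0 controls and 6.17, 6.65 and 6.85 in day 0 mutants, so the highest value of both groups was a mutant's. At day 2 it was 6.34, 5.60 and 5.43 in controls and 4.78, 3.97 and 4.77 in mutants, 2.43-fold lower (adjusted p = 0.0205), and over both days it did not pass (-0.71, adjusted p = 0.0663). Alad, the second enzyme, read 5.95 and 6.21, then 6.06, 5.93 and 5.46 at day 0, and 6.60, 5.93 and 5.95, then 5.04, 5.27 and 5.19 at day 2 (-0.99 ± 0.23 SE, adjusted p = 0.0167). Urod, whose printed promoter holds none of the letters searched, was 6.79 and 6.62 against 6.62, 6.82 and 5.75 at day 0 and 6.99, 6.80 and 6.59 against 5.77, 5.49 and 5.94 at day 2 (-1.06 ± 0.27 SE, adjusted p = 0.0257). At day 2 these 3 enzymes had separate groups, as had all 28 genes, and at day 0 their groups overlapped.

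The last steps run in the mitochondrion. Cpox was 5.75 and 5.22 in day 0 controls, 5.24, 5.36 and 4.81 in day 0 mutants, 5.44, 5.42 and 5.51 in day 2 controls and 4.37, 4.12 and 4.48 in day 2 mutants. Its day 2 controls lay close together (SD 0.05, n = 3), and the difference of -1.13 ± 0.19 (SE, adjusted p = 0.00479) had the smallest p of the 8 heme and iron genes at day 2. Ppox, the next enzyme, read 2.42 and 2.19, then 2.03, 2.24 and 1.54 at day 0, and 2.00, 1.59 and 2.09, then 0.95, 0.69 and 1.37 at day 2 (-0.88 ± 0.24 SE, adjusted p = 0.0352). Fech, which inserts the iron, read 5.72 and 5.17, then 5.25, 5.59 and 4.10 at day 0, and 5.47, 5.08 and 5.07, then 4.33, 3.76 and 4.37 at day 2, and did not pass (-1.05 ± 0.36 SE, adjusted p = 0.0785).

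The remaining members of this class supply iron. Tfrc, the transferrin receptor, was lower in every mutant on both days: 2.40 and 2.29 against 2.03, 1.96 and 0.52 at day 0, and 2.49, 2.03 and 2.02 against 1.04, 0.61 and 1.13 at day 2 (-1.26 ± 0.37 SE, adjusted p = 0.0464). Slc25a37, mitoferrin, which carries iron into the mitochondrion, read 7.29 and 6.89, then 6.81, 6.88 and 5.66 at day 0, and 6.50, 6.01 and 5.94, then 5.29, 3.95 and 5.11 at day 2. It did not pass at day 2 (-1.37 ± 0.41 SE, adjusted p = 0.0520), and 1 of its 3 probes was above background on no array and was not tested.

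Of the remaining genes, Ahsp, the chaperone of free alpha globin, read 7.62 and 7.35 in day 0 controls, 7.41, 7.51 and 6.93 in day 0 mutants, 7.45, 7.19 and 6.99 in day 2 controls and 6.02, 5.08 and 6.12 in day 2 mutants. It fell 2.77-fold at day 2 (adjusted p = 0.00842). Hemgn, a nuclear protein of blood progenitors, and Trim10, a RING finger protein of late red cell precursors, did not pass at day 2 (-1.34 and -1.64, adjusted p = 0.0730 and 0.0951). Hemgn was 5.21 and 4.92 against 4.99, 5.13 and 3.39 at day 0 and 5.18, 4.48 and 4.33 against 3.58, 2.82 and 3.57 at day 2. Trim10 was 4.13 and 4.07 against 3.70, 4.09 and 1.68 at day 0 and 3.95, 3.17 and 3.12 against 2.17, 0.92 and 2.24 at day 2. In both genes day 0 replicate 3 was the only mutant at least 2-fold below the controls.

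Car1, the carbonic anhydrase of red cells, differed from the others in its course. It read 0.74 and 0.87 in day 0 controls and 0.81, 1.20 and 0.33 in day 0 mutants. It read 2.59, 2.76 and 3.08 in day 2 controls and 2.11, 2.22 and 2.26 in day 2 mutants. The genotype difference at day 2 did not pass (-0.61 ± 0.22 SE, adjusted p = 0.0889), although every mutant was below every control. Among the day 2 mutants, replicate 2 held the lowest value for 25 of the 28 genes.

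The day 0 mutants were split for some genes and not for others. On mutant day 0 replicate 3, relative to the mean of the other 2 day 0 mutants, 13 of the 28 genes were at least 2-fold lower (46.4%, against 10.9% of all genes). The largest gaps were those of Klf1 (-2.68), Trim10 (-2.22), Ermap (-2.06), Cldn13 (-2.05), Ank1 (-1.98) and Tal1 (-1.80). Sptb (-0.07), Rhag (-0.09), Kel (-0.39) and Nfe2 (-0.40) moved little, and Alas2 was 0.44 higher. These gaps are those of the brightest probe of each gene, and for some genes they depended on the probe. Another Sptb probe read 1.05 and 0.93 on replicates 1 and 2 and -0.56 on replicate 3. In the same order an Ank1 probe read -3.80, -3.15 and -2.16, and a Slc25a37 probe 1.04, 1.90 and 1.72, so replicate 3 was not the lowest. Other lists moved on this array too. Relative to the day 0 controls, the median of lymphoid markers was -1.39, and the 2 controls themselves were at -0.46 and 0.46. The median of cycling markers was -0.55. Hepatocyte markers were at -0.77, against -0.48 and -0.52 on mutant replicates 1 and 2. Macrophage markers were at -0.71, against -0.43 and -0.39. The medians of endothelial markers (0.77), embryonic globins (0.61), adult globins (0.46, saturated), stellate markers (0.44) and megakaryocyte markers (0.42) were above the controls. The median of the 28 genes was -0.99 on this array, and of the 28 Alas2 alone was above the controls (0.16). The part of the other lists in the split was not tested.

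**Figure D4:**
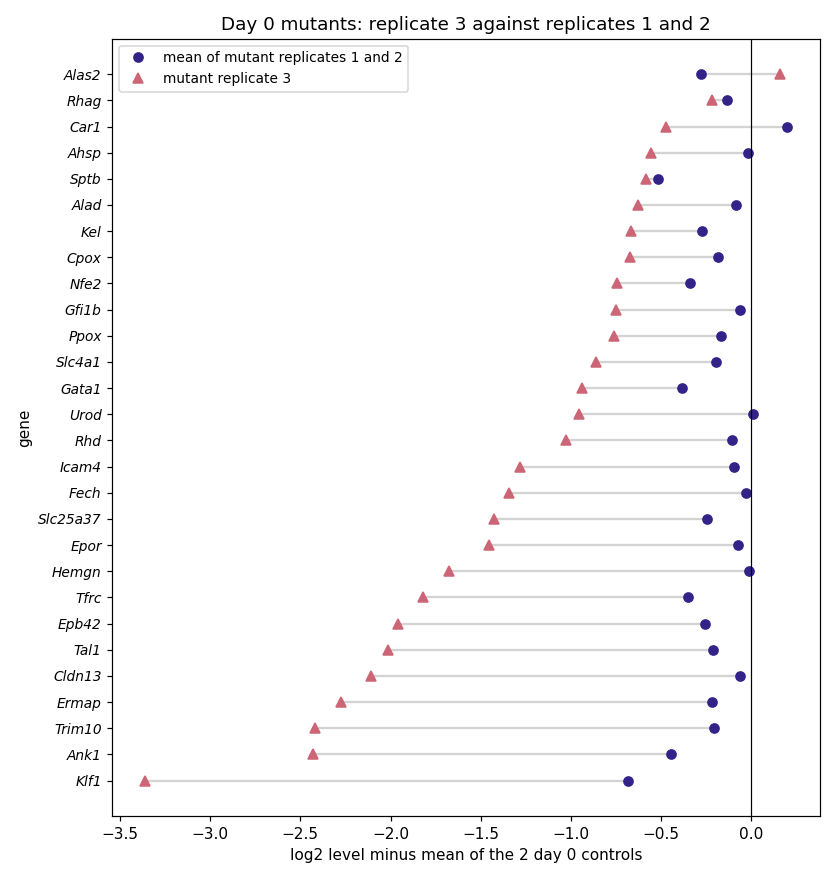
Level of the 28 genes (rows, ordered by replicate 3) in day 0 mutants relative to the mean of the 2 day 0 controls (log2, horizontal axis), for the mean of mutant replicates 1 and 2 (circles) and for replicate 3 (triangles). The circles lie between -0.69 and 0.20, while the triangles run from 0.16 for Alas2 to -3.36 for Klf1.

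Between birth and day 2 in control livers, the share of the 28 genes called was near that of all genes. Of the 28, Nfe2 fell by 1.04 ± 0.20 (SE, adjusted p = 0.0159) and Car1 rose by 2.01 ± 0.24 (SE, adjusted p = 0.00264), where 5.73% of all genes were called lower and 5.52% higher. The median change was -0.26, and 7 of the 28 had an unadjusted p under 0.05 (limma), as had 4669 of all 15767 genes. Slc25a37 (-0.94), Alas2 (-0.90) and Rhag (-0.80) did not pass (adjusted p = 0.211, 0.114 and 0.0734). With array weights 7 genes passed, 4 of them lower, where 15.3% of all genes were called lower. The call for Nfe2 was lost without day 0 control replicate 1 or 2 or day 2 control replicate 2, and with sex as a covariate. Without mutant day 0 replicate 3, 4 genes passed, Nfe2 and Sptb lower and Gfi1b and Car1 higher. Of all 15755 genes in that fit 2140 (13.6%) were called lower and 2200 higher. In controls 11 of the 28 genes were lower on every day 2 array than on every day 0 array, as were 28% of all genes, and in mutants 13 were, against 22.2% of all genes. In mutants 11 genes fell and Car1 rose by 1.42 ± 0.22 (SE, adjusted p = 0.00431), against 11.3% and 9.48% of all genes, with a median of -0.88. Alas2 fell most (-2.05 ± 0.30 SE, adjusted p = 0.00377), followed by Kel, Rhag, Nfe2, Slc25a37, Sptb, Slc4a1, Ahsp, Icam4, Ppox and Cpox. Without mutant day 0 replicate 3 the count was 25, 24 of them lower, where 12.2% of all genes were called lower. The difference between the courses is the interaction given above, in which none of the 28 passed.

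Other genes of the same pathways were read from 3 lists of genes outside the 28. Of 28 further heme and iron genes 8 fell over both days and none rose, with a median of -0.31, where 6.98% of all genes were called lower. Uros, the enzyme just before Urod, fell by 0.78 ± 0.20 (SE, adjusted p = 0.0277), as did the glycine carrier Slc25a38 (-0.65, adjusted p = 0.0327). Alas1, the form of the first enzyme used in hepatocytes, did not pass (-0.12 ± 0.23 SE, adjusted p = 0.783). Tfr2, an iron sensor of hepatocytes and red cell precursors, was lower on both days (-0.93 ± 0.18 SE at day 0, adjusted p = 0.0321, and -1.08 ± 0.16 SE at day 2, adjusted p = 0.00230). It read 4.76 and 5.04 in day 0 controls and 3.91, 3.93 and 4.06 in day 0 mutants.

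Of all genes 6.98% were called lower over both days and 6.64% at day 2. Of 33 further membrane and late precursor genes 19 fell over both days and 24 at day 2, and none rose. The 4 with the smallest p over both days were Pklr, the red cell and liver pyruvate kinase (-1.02), catalase (Cat, -0.54), the amino acid carrier Slc43a1 (-0.84) and the exonuclease Isg20 (-0.91), with adjusted p from 0.00883 to 0.0108. Of 27 regulators and early progenitor genes 11 fell over both days and 11 at day 2. The factors Lyl1 and Cited4 fell by 0.70 ± 0.09 and 0.88 ± 0.15 (SE, adjusted p = 0.00127 and 0.00448), Ikzf1 by 0.69 and Stat5a, which signals below Epor, by 0.50. Gata2 and Myb, factors of early progenitors, fell by 0.59 and 0.52 (adjusted p = 0.0270 and 0.0382), and the stem cell factor receptor Kit did not pass (-0.16 ± 0.20 SE, adjusted p = 0.646). The median over both days was -0.68 in the late list and -0.50 in the early list, against -0.96 in the 28 genes; the difference between lists was not tested.

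Globins and markers of other liver cells were set beside these genes. The adult globins Hba-a1 and Hbb-b1 were saturated on all day 0 arrays and on 2 and 3 of the day 2 controls, so their differences at day 2 (-0.84 and -0.72, adjusted p = 0.0233 and 0.0416) can understate the change, and near-identical gene copies share their signal. The embryonic beta-like globin Hbb-bh1 was not saturated. It read -1.05 and -1.22 in day 0 controls, -1.47, -0.92 and -0.79 in day 0 mutants, -2.16, -2.64 and -2.29 in day 2 controls and -4.15, -5.06 and -4.75 in day 2 mutants (-2.29 ± 0.26 SE at day 2, adjusted p = 0.000543). The day 0 groups overlapped and the day 2 groups were far apart. Hbb-y fell as well at day 2 (-1.50, adjusted p = 0.0254), and Hba-x was above background on 1 of the 3 day 2 mutants.

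Beside the counts of markers that follow, 6.98% of all genes were called lower and 8.84% higher over both days, and 6.64% lower at day 2. All 6 bile duct markers rose over both days, Sox9 by 4.30 ± 0.18 (SE, limma adjusted p = 4.73e-06). Their summed linear level, in units of the 75th percentile, ran from 209.6 to 253.9 in day 2 mutants and from 8.49 to 16.6 in day 2 controls. Of 8 hepatocyte markers 4 fell over both days, Apoa1, Apob, Tat and Cps1, with a summed level, which includes saturated Alb, of 1537 to 1654 in day 2 mutants and 2110 to 2678 in day 2 controls. Of 11 macrophage markers, several of which mark the macrophages on which red cell precursors mature, 4 fell: Siglec1 (-1.51 ± 0.24 SE, adjusted p = 0.00295), Csf1r, Adgre1 and Mertk. Their summed level overlapped at day 2, from 84.0 to 138 in mutants and from 102 to 111 in controls. Of 7 megakaryocyte markers Gp1bb and Ppbp fell, with a summed level of 45.2 to 50.3 in day 2 mutants and 85.2 to 94.1 in day 2 controls. All 7 fell over both days (median -1.13), and 6 at each day, without mutant day 0 replicate 3. Of all genes 12.7% were then called lower over both days, 2.37% at day 0 and 15.2% at day 2. Of 8 cycling markers 1 fell over both days (Mki67, -0.54 ± 0.10 SE, adjusted p = 0.00788) and 3 at day 2 (Mki67, Mcm2 and Rrm2), with a summed level of 126 to 145 in day 2 mutants and 208 to 232 in day 2 controls. None of 9 granulocyte precursor, 5 lymphoid or 5 stellate markers passed over both days. Of these, 4, 1 and 1 had an unadjusted p under 0.05 (limma), as had 4711 of all 15767 genes. Of 5 endothelial markers 1 fell (Stab2, -0.54). Leaving out mutant day 0 replicate 3, all 9 granulocyte precursor markers fell over both days (median -0.65). Of the 8 cycling markers 4 then fell over both days and 5 at day 2, against 12.7% and 15.2% of all genes. The part of these other cells in the fall of the 28 genes was not tested.

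**Figure D5:**
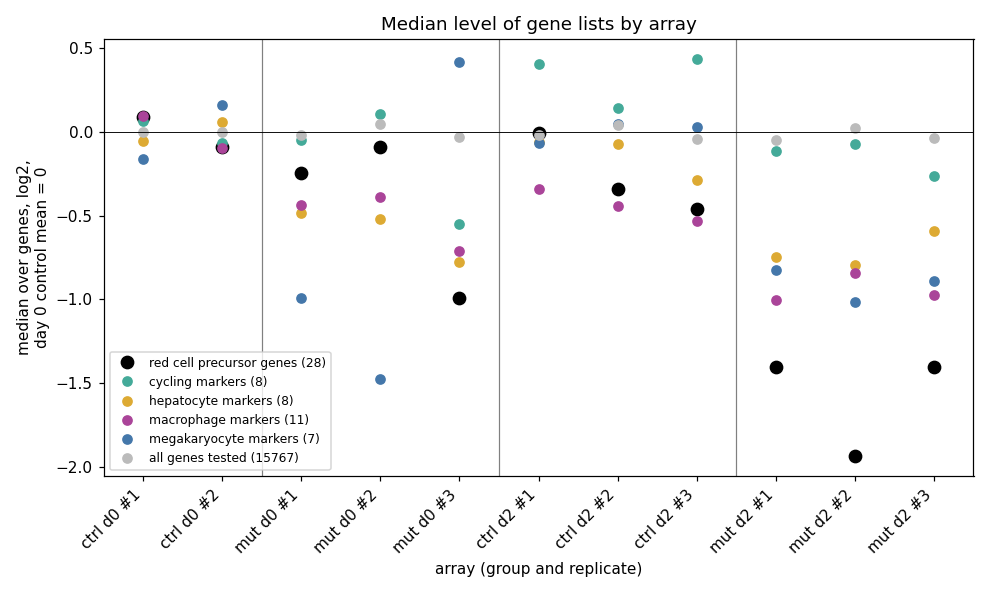
Median log2 level of gene lists on each array (horizontal axis), relative to the mean of the 2 day 0 controls; the number of genes in each list stands in the legend. The red cell precursor genes (black) lie between -1.94 and -1.40 in the day 2 mutants, below the hepatocyte, macrophage, megakaryocyte and cycling markers there, while the median of all genes (grey) stays near 0. Granulocyte precursor markers, not drawn, were at -1.47, -1.41 and -1.72 in the day 2 mutants. On replicates 1 and 3 this was below the red cell precursor genes. They were already at -1.14, -1.02 and -1.15 in the day 2 controls. Their median genotype difference at day 2 was -0.42, against -1.31 for the red cell precursor genes. Lymphoid markers were at -1.53 on day 2 mutant replicate 3 and at -0.91 on day 2 control replicate 3.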

How the data were processed

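Total liver RNA was purified on columns, amplified linearly and labelled with Cy3, per the labels' protocols. Each deposited array file holds spot intensity and, from Agilent's Feature Extraction software, a processed signal, which is background-subtracted intensity, not scaled between arrays, per the file headers. A second deposited table holds the authors' log2 values, made with RMA, per the submitters' processing notes, of which the settings are not given in the sources used here. It served as an alternative.

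From log2 of the processed signal, the 75th percentile over the array's non-control spots was subtracted. Outlier spots were left out and repeat spots averaged. A probe was tested if at least 1 group had it well above background throughout (27094 of 41174 probes), and a gene was read from its brightest tested probe. Symbols came from the RefSeq table (GRCm38.p6), by accession for 23370 probes. Positions of probes are those of the files (mm8).

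limma 3.58.1 under R 4.3.3 fitted 4 group means over 11 arrays (7 residual and 2.39 prior degrees of freedom). The steps were checked on simulated data. Every one of the 28 genes was named; arrays are given one by one for, in each class, the 3 smallest p and the largest p over both days and for genes whose call differed between days, and for the rest as well. Of other lists, the 4 smallest p and some genes chosen in any case were named; a few of these are not reported here. The genes, lists and tests were chosen with earlier results of these data known.

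At day 2, deviations from the group means correlated across genes at 0.279, 0.228 and 0.259 for same-numbered arrays, against -0.210 to -0.053 for differently numbered ones. Deviations cancel out within a group, so negative values for different numbers follow in part from positive ones for the same number. They are no separate support for pairing. The same-numbered day 2 arrays, which share a slide, thus deviated together to a small degree. At day 0 the values were 0.060 and 0.089 for the same number.

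Alternatives were normexp, quantile normalisation, the RMA table, filters, mean over probes, slide as a replicate block, sex, the compared groups alone, array weights (added after the data were seen) and leaving out each array.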

Additional observations from a re-analysis of the deposited data

How the results depend on the processing

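The 28 differences over both days and at day 2 kept their sign in all 20 and 21 other settings, and none reversed. Over both days 17 genes passed, where 6.98% of all genes were called lower. The count was 10 with quantile normalisation (6.38% of all genes) and 11 with no filter on dim probes (4.01%). It was 3 with sex as a covariate (2.23%) and 10 with slide as a replicate block (5.51%). Without 1 array of a group of 3 it was 7 to 22 (3.95% to 12.7%). At day 2, 16 passed, 27 when the compared groups were fitted alone, 28 with array weights and 9 to 28 without 1 array. The difference between days called 0, 2 with array weights and 0 to 2 without 1 array. In controls 2 changed with time, 4 in the RMA table, 1 with sex, 7 with array weights and 1 to 4 without 1 array. In mutants 12 did, 7 with the compared groups alone, 25 with array weights and 8 to 25 without 1 array. At day 0 no setting called any. The replicate block left no other count over 1.5 times away. Of the 16 genes called at day 2, Gata1, Nfe2, Gfi1b, Sptb, Rhag, Kel, Icam4, Cpox and Ahsp passed in all 21 other settings. With 1 control left at day 0 that array is assumed to vary like the others. The weight of mutant day 0 replicate 3 was 0.111. The share of all genes called lower moved with the setting too. At day 2 it was 17.8% with array weights and 15.2% without this array, against 6.64%. In controls with time it was 15.3% and 13.6%, against 5.73%, and in mutants 16.1% and 12.2%, against 11.3%. For the difference between days it was 0.926% and 0.381%, against 0.0381%. With the compared groups alone it was 11.7% at day 2 and 6.83% in mutants with time. In controls with time it was 4.36% in the RMA table and 1.12% with sex. Without 1 array of a group of 3 it ran from 2.63% to 15.2% at day 2. In controls with time that range was 2.26% to 13.6%, and in mutants 4.84% to 12.2%. The causes of these shifts were not tested. All 28 genes were well above background on all arrays.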

Other observations

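Among the heme and iron genes outside the 28, Ireb2, an iron-responsive RNA-binding protein, was the 1 gene of the list called higher in mutants at day 2 (0.52 ± 0.15 SE, limma adjusted p = 0.0452). In control livers from birth to day 2, Tfr2 rose (1.16, adjusted p = 0.00656). Over the same days the glucose carrier Slc2a1 and Tspo2 fell by 2.45 and 1.54 (adjusted p = 0.00952 and 0.0238), and Mxd1, Bcl2l1, Spi1 and Lyl1 fell by 1.84, 1.09, 0.95 and 0.53 (adjusted p from 0.00272 to 0.0425). These genes were read from the same lists of heme, late precursor and early progenitor genes.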
